A study of Homo sapiens with 8 samples.

Results

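The BCL2 family decides whether the mitochondrial outer membrane is opened during apoptosis, and its transcripts were read here in bile duct cancer cells with YAP1 knocked down. The members are 10 named genes, listed by symbol. The list was chosen with earlier results of these data known. It holds the BH3-only genes BMF, PMAIP1, BBC3, BCL2L11, BIK and BID, the pore-forming effectors BAX and BAK1, and the survival genes BCL2L1 and MCL1. Of the 10, 9 were measured among 19775 genes, each on its brightest probe set that carries 1 gene symbol. BBC3, which encodes the BH3-only protein PUMA, had no probe set with a single symbol and was not analysed here.

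Effector proteins of this family oligomerise in the mitochondrial outer membrane and release cytochrome c, which leads to caspase activation. Survival proteins hold the effectors and the BH3-only proteins in check, and BH3-only proteins, raised by stress or by loss of survival signals, bind the survival proteins and in some cases the effectors directly. In carcinoma cells MCL1 and BCL2L1 are often the survival proteins on which cells depend.

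The 4 YAP shRNA 1 samples were HuCCT1 cells, an established human cholangiocarcinoma line, with an shRNA targeting YAP1, the gene of a transcriptional coactivator restrained by the Hippo pathway. The 4 control shRNA samples were HuCCT1 cells carrying a scrambled shRNA. Doxycycline at 100 ng/ml, started 3 days before seeding, induced the shRNA in both groups, and both were grown in serum free of tetracycline. Only 1 shRNA against YAP1 is included, and the labels do not say whether the replicates came from separate cultures. The p-values therefore measure only the spread among these 8 samples, which may be technical. The title of the series mentions overexpression, but the labels and the design name an shRNA instead.

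All values are on the log2 scale of the deposited table, and changes are YAP shRNA 1 minus control shRNA. A gene was said to rise or fall at a Benjamini-Hochberg adjusted p below 0.05 in limma over all genes. YAP1 averaged 10.50 ± 0.0702 on YAP shRNA 1 arrays and 12.64 ± 0.0860 on control shRNA arrays (SD, n = 4 each), a 4.41-fold fall (limma adjusted p = 6.15e-07). Array medians lay between 6.22 and 6.25. Control shRNA replicate 4 stood apart on the second principal component, at 23.0, where the other arrays lay between -12.3 and 6.39, so results are given without it where that changes them. The biliary epithelial genes KRT7, KRT19, EPCAM and SOX9 were bright in both groups, and the means of the 7 measured biliary markers ran between 6.62 and 14.19 on YAP shRNA 1 arrays and between 5.56 and 14.20 on control shRNA arrays. CFTR was the dimmest of them, below the brightest hepatocyte marker, and CFTR and KRT19 were the 2 biliary markers that rose (log2 fold changes 1.07 and 0.15). The 6 measured hepatocyte markers, of which 0 changed and 0 had an unadjusted p under 0.05 in limma, reached means of at most 6.77 on YAP shRNA 1 arrays and 6.75 on control shRNA arrays, and the 5 leukocyte markers at most 6.42 on YAP shRNA 1 arrays and 5.96 on control shRNA arrays, with CD14 risen by 0.46 and PTPRC at -0.22 and fallen. Of 7 fibroblast markers 1 rose, and of 6 endothelial markers 0 changed. An unadjusted p under 0.05 in limma was reached by 2 fibroblast markers and 1 endothelial marker, against 29.3% of all genes. Fibroblast marker means reached 8.48 on YAP shRNA 1 arrays and 7.95 on control shRNA arrays, above every hepatocyte and leukocyte marker. Endothelial marker means reached 6.22 on YAP shRNA 1 arrays and 6.14 on control shRNA arrays.

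Of the 9 measured members, 4 rose and 1 fell with the YAP shRNA 1. BMF, BCL2L11, BIK and BCL2L1 rose, PMAIP1 fell, and BID, BAX, BAK1 and MCL1 did not pass. Among all genes 16.7% changed, 9.49% upward and 7.17% downward (limma, adjusted p below 0.05). The changes that passed were small, with folds between 1.17 and 1.30, and their absolute log2 values of 0.23 to 0.38 lay around the median of 0.31 over all changed genes. On the main probe sets the log2 fold change was above 0 for 8 of the 9 members, against 53.9% of all genes. The median was 0.16 for the members, which is the value of MCL1, and 0.01 for all genes. Those above 0 include MCL1, which stood at -0.06 as the mean over its probe sets. They also include BCL2L11, which stood at 0.09 as such a mean and did not pass (limma adjusted p = 0.327). The YAP shRNA 1 and control shRNA arrays did not overlap for 7 of the 9, where 24.3% of all genes showed no overlap. An unadjusted p under 0.05 was reached by 8 of the 9 members and by 29.3% of all genes. These shares over all genes are not matched for level, and the members were mostly bright. When genes below the median level were left out, 8 of the 9 members remained among 9887 genes. In that fit 3887 of the 9887 genes changed, 2168 upward and 1719 downward. Of the 8 members 6 rose on their main probe sets, MCL1 among them, and 1 fell. Since the arrays hold bulk RNA, a change in some cells and a smaller change in all cells cannot be told apart.

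**Figure D1:**
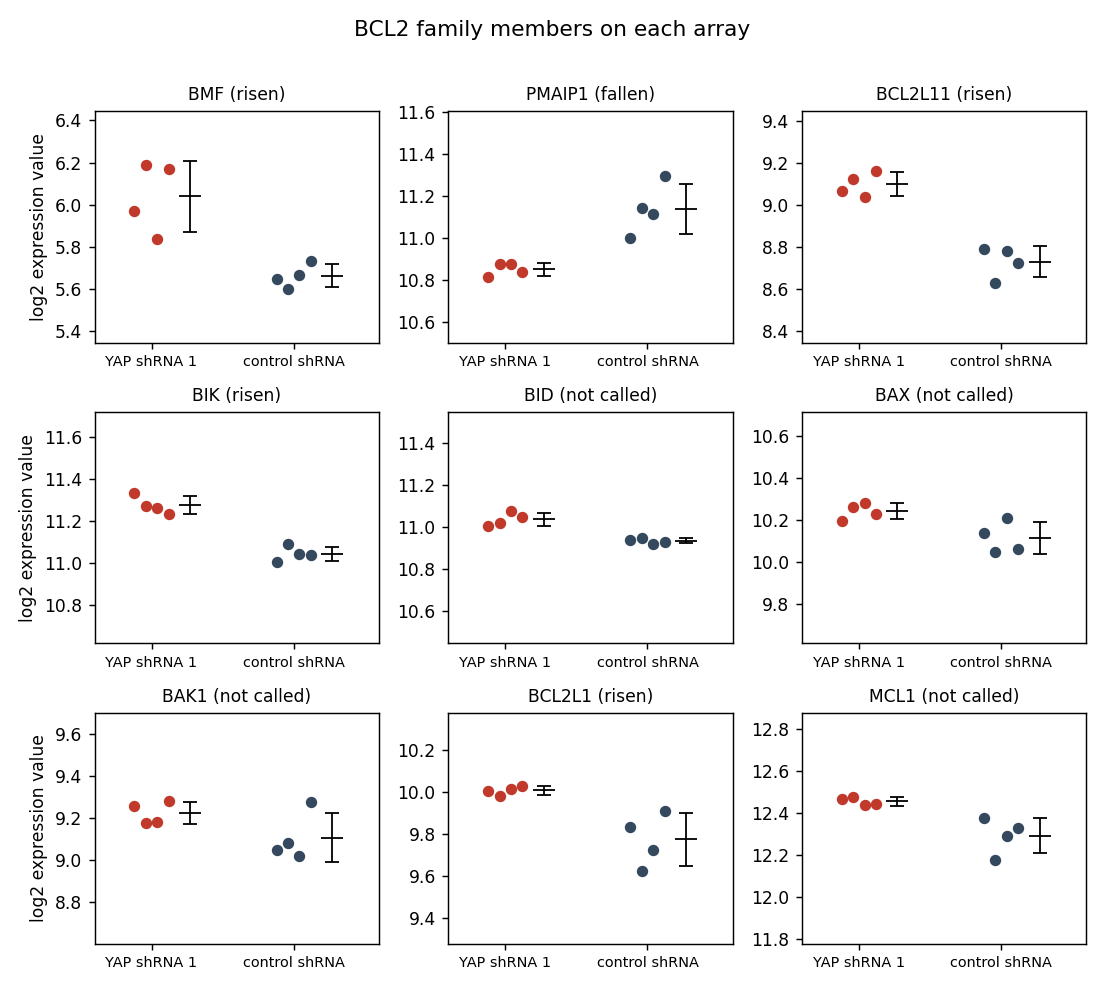
Log2 expression value (vertical axis, each panel spanning the same height) of the 9 measured BCL2 family members on their main probe sets, with YAP shRNA 1 arrays on the left and control shRNA arrays on the right of each panel. Points are single arrays in replicate order and bars give the mean ± SD of 4 arrays; the groups are apart for BMF, PMAIP1, BCL2L11, BIK, BID, BCL2L1 and MCL1 and overlap for BAX and BAK1.

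The BH3-only genes held the largest changes among the members, and they moved in both directions. BCL2L11 encodes BIM, a BH3-only protein that binds every major survival protein and can activate BAX and BAK1 directly. On its main probe set, 225606_at, BCL2L11 stood at 9.07, 9.12, 9.04 and 9.16 on the YAP shRNA 1 arrays, against 8.79, 8.63, 8.78 and 8.72 on the control shRNA arrays. The groups were well apart, with the lowest YAP shRNA 1 array above the highest control shRNA array. BCL2L11 rose 1.29-fold (log2 fold change 0.37, standard error 0.0505, limma adjusted p = 0.00158), and the exact permutation p of 0.0286 is the smallest that 4 against 4 arrays allow.

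BCL2L11 has 7 probe sets with its symbol alone, and only the main one rose when every probe set on the array was tested (limma adjusted p = 0.00374), where 5.25% of all probe sets rose and 4.96% fell. The other 6 had log2 fold changes of -0.05 to 0.21, and none passed. For example, 222343_at read 7.38, 7.68, 7.45 and 7.53 on YAP shRNA 1 arrays and 7.57, 7.58, 7.61 and 7.47 on control shRNA arrays, with overlapping groups. The per-array difference between the main and another probe set was tested in 1 fit over 21322 such pairs, of which 5.15% differed. By that test 4 of the 6 changed by a different amount from the main probe set, among them 1558143_a_at (difference 0.33, limma adjusted p = 0.00961) and 222343_at (difference 0.42, limma adjusted p = 0.0168). As the mean over its probe sets, BCL2L11 stood at 0.09 (limma adjusted p = 0.327), so its rise rests on 1 probe set. The platform annotation names a source sequence for each probe set, but not every transcript that it reads. For 1553096_s_at, 208536_s_at and 1553088_a_at, at log2 fold changes of 0.01, -0.01 and 0.05, that sequence is a RefSeq mRNA. For the others, the main one included, it is not.

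BMF encodes a BH3-only protein that is held at the actomyosin cytoskeleton through dynein light chain and is known to be freed when cells lose attachment. Its single probe set stood at 5.97, 6.19, 5.84 and 6.17 on the YAP shRNA 1 arrays, against 5.65, 5.60, 5.66 and 5.73 on the control shRNA arrays. All YAP shRNA 1 arrays lay above all control shRNA arrays, and they were more scattered (SD 0.169, against 0.0553 in control shRNA). BMF rose 1.30-fold (log2 fold change 0.38, standard error 0.0811, limma adjusted p = 0.0137). BMF was the dimmest member, at the 34.4th percentile of genes by level. DYNLL1 and DYNLL2, the dynein light chain genes whose proteins tether BIM and BMF, did not pass, at log2 fold changes of -0.05 and 0.06 (limma adjusted p = 0.313 and 0.348).

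BIK encodes a BH3-only protein found largely at the endoplasmic reticulum. It stood at 11.33, 11.27, 11.26 and 11.23 on YAP shRNA 1 arrays, against 11.00, 11.09, 11.04 and 11.04 on control shRNA arrays, on its single probe set. The arrays within each group lay close together and the groups did not overlap. BIK rose 1.17-fold (log2 fold change 0.23, standard error 0.0390, limma adjusted p = 0.00439).

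PMAIP1 encodes NOXA, a BH3-only protein that binds MCL1 and marks it for degradation. It was the member that fell, with 10.81, 10.88, 10.87 and 10.84 on YAP shRNA 1 arrays, against 11.00, 11.14, 11.11 and 11.29 on control shRNA arrays. Every YAP shRNA 1 array lay below every control shRNA array, and control shRNA replicate 4 was the highest of all 8. PMAIP1 fell 1.22-fold (log2 fold change -0.29, standard error 0.0608, limma adjusted p = 0.0131), and its fall was -0.23 without control shRNA replicate 4. Its second probe set gave -0.25 with overlapping groups, did not pass over all probe sets (limma adjusted p = 0.0857) and did not differ from the first (limma adjusted p = 0.851). PMAIP1 lies on chromosome 18, where 51 of 303 genes fell, or 16.8%, and the median log2 fold change was -0.04; the part of this in the fall of PMAIP1 was not tested.

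BID encodes a BH3-only protein that caspase 8 cleaves into its active form, which links death receptors to mitochondria. Its main probe set stood at 11.00, 11.02, 11.07 and 11.05 on YAP shRNA 1 arrays, against 10.94, 10.95, 10.92 and 10.93 on control shRNA arrays. The groups did not overlap, but the difference was small at 0.10 (95% interval 0.02 to 0.18) and did not pass (limma adjusted p = 0.0822). All 3 BID probe sets had positive log2 fold changes and separate groups. The dimmest, 204493_at, read 8.95, 9.00, 8.95 and 9.10 on YAP shRNA 1 arrays and 8.87, 8.63, 8.74 and 8.69 on control shRNA arrays. It rose by 0.27 among all probe sets (limma adjusted p = 0.0318), although its difference from the main probe set did not pass (limma adjusted p = 0.229). BID rose without probe sets whose names end in _x_at or _s_at, which leaves 204493_at (limma adjusted p = 0.0214), and as the mean of its probe sets, by 0.18 (limma adjusted p = 0.0191). CASP8, the gene of the protease that cleaves BID, had a log2 fold change of -0.09 (limma adjusted p = 0.466), or 0.07 without probe sets ending in _x_at or _s_at.

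**Figure D2:**
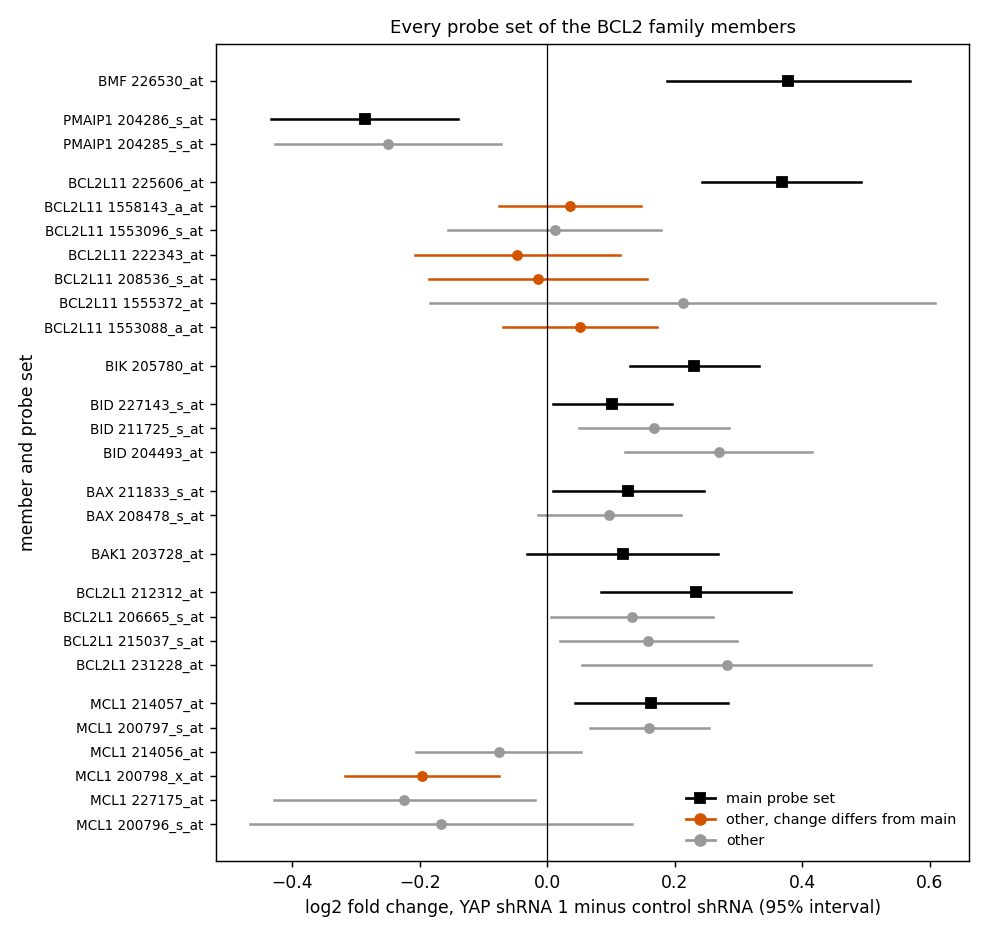
Log2 fold change, YAP shRNA 1 minus control shRNA, with its 95% interval from limma, for all 27 probe sets that carry a member's symbol alone. Black squares are main probe sets, orange circles the 5 others whose change differed from the main one and grey circles the remaining others; those 5 belong to BCL2L11 and MCL1, while the probe sets of BID, BCL2L1 and BAX all lie above 0 and those of PMAIP1 below 0.

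The effector genes did not pass. BAX encodes a cytosolic effector that moves to mitochondria on activation. It stood at 10.20, 10.27, 10.28 and 10.23 on YAP shRNA 1 arrays, against 10.14, 10.05, 10.21 and 10.06 on control shRNA arrays. Control shRNA replicate 3 lay above the lowest YAP shRNA 1 array, and the difference of 0.13 (95% interval 0.02 to 0.24) had a limma adjusted p of 0.110. Its second probe set gave 0.10. BAX passed when genes below the median level were left out and the fit was repeated on the rest (limma adjusted p = 0.0388).

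BAK1 encodes the effector that resides in the mitochondrial outer membrane. It stood at 9.26, 9.18, 9.18 and 9.28 on YAP shRNA 1 arrays, against 9.05, 9.08, 9.02 and 9.28 on control shRNA arrays, with a difference of 0.12 (95% interval -0.02 to 0.26, limma adjusted p = 0.257). The overlap came from control shRNA replicate 4 alone. Without that array the difference was 0.18 and BAK1 rose (limma adjusted p = 0.0234). VDAC2, the gene of an outer membrane channel to which BAK binds, stood at -0.01 (limma adjusted p = 0.865), and at 0.00 with the opposite sign after quantile normalization.

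One survival gene rose and the other lay at the threshold. BCL2L1 encodes BCL-XL, which sequesters BIM, BMF and the effectors, and a shorter death-promoting splice form. It stood at 10.01, 9.98, 10.02 and 10.03 on YAP shRNA 1 arrays, against 9.84, 9.63, 9.73 and 9.91 on control shRNA arrays. The YAP shRNA 1 arrays were close together (SD 0.0206) and above the more scattered control shRNA arrays (SD 0.125). BCL2L1 rose 1.18-fold (log2 fold change 0.23, standard error 0.0620, limma adjusted p = 0.0343). All 4 of its probe sets gave positive log2 fold changes, of 0.13 to 0.28, none of the other 3 differed from the main one by limma, and each had an unadjusted p under 0.05, but none passed over all probe sets. The call was lost when any YAP shRNA 1 array or control shRNA replicate 2 or 3 was left out, with limma adjusted p between 0.0629 and 0.0887, and with median centring (limma adjusted p = 0.0529).

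MCL1 encodes a short-lived survival protein that is bound by BIM and NOXA. Its main probe set, 214057_at, read 12.47, 12.48, 12.44 and 12.44 on YAP shRNA 1 arrays, against 12.37, 12.18, 12.29 and 12.33 on control shRNA arrays. The groups did not overlap, and the difference of 0.16 (95% interval 0.05 to 0.27) narrowly missed the threshold (limma adjusted p = 0.0515). It passed with quantile normalization, with dim genes left out, with a spread that depends on level, with array weights and without control shRNA replicate 1, with limma adjusted p between 0.00653 and 0.0397.

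The 6 MCL1 probe sets did not move together. Besides the main one, 200797_s_at rose by 0.16 among all probe sets (limma adjusted p = 0.0416), while the other 4 had log2 fold changes of -0.22 to -0.08. On 200798_x_at the arrays were ordered the opposite way, with 11.36, 11.35, 11.27 and 11.31 on YAP shRNA 1 arrays and 11.44, 11.51, 11.50 and 11.63 on control shRNA arrays. That probe set, whose name marks possible cross-hybridisation, stood at -0.20 (limma adjusted p = 0.0511 over all probe sets) and differed from the main one by 0.36 (limma adjusted p = 0.0212). The mean over the 6 probe sets was -0.06 (limma adjusted p = 0.547), so no direction can be given for MCL1 as a gene.

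The differences between probe sets of 1 gene were less stable than the member calls. With 1 array left out, between 1 and 5 of the 18 other member probe sets differed from their main one. The MCL1 difference passed without control shRNA replicate 1 or 4 and was lost when any other array was left out. At least 1 BCL2L11 probe set differed from the main one with each array left out.

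**Figure D3:**
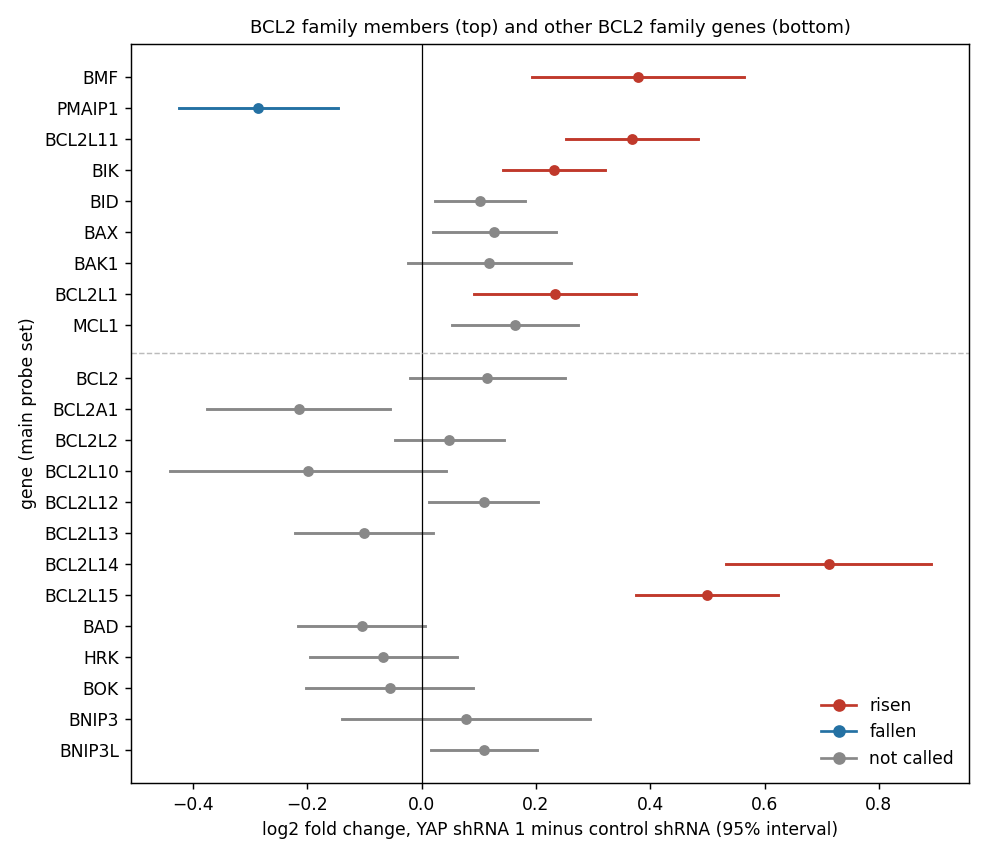
Log2 fold change, YAP shRNA 1 minus control shRNA, with its 95% interval from limma, on the main probe set of the 9 members (above the dashed line) and of 13 other BCL2 family genes (below it). Red marks genes that rose, blue the 1 that fell and grey those that did not pass; BCL2L14 and BCL2L15 lie farthest to the right, at 0.71 and 0.50.

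Of 13 other BCL2 family genes, 2 rose and 0 fell, with a median of 0.05, against 9.49% risen and 7.17% fallen among all genes. An unadjusted p under 0.05 in limma was reached by 5 of the 13, against 29.3% of all genes. BCL2L14, which encodes BCL-G, stood at 6.19, 6.25, 6.30 and 6.47 on YAP shRNA 1 arrays, against 5.44, 5.72, 5.54 and 5.65 on control shRNA arrays. The groups were far apart, and BCL2L14 rose 1.64-fold (log2 fold change 0.71, limma adjusted p = 0.000510). Its other 5 probe sets, all dimmer, gave -0.10 to 0.07, and 4 of them differed from the main one. Without probe sets ending in _x_at or _s_at BCL2L14 stood at 0.03 (limma adjusted p = 0.883).

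BCL2L15, which encodes a family protein also called BFK, stood at 8.74, 8.92, 8.89 and 8.90 on YAP shRNA 1 arrays, against 8.31, 8.31, 8.40 and 8.43 on control shRNA arrays. It rose 1.41-fold (log2 fold change 0.50, limma adjusted p = 0.000479), and its 3 probe sets gave 0.41 to 0.75, with 2 of them risen over all probe sets. The 11 others did not pass, with log2 fold changes of -0.22 to 0.12. The survival gene BCL2A1 had the lowest, -0.22 (limma adjusted p = 0.0718), with 10.04, 10.05, 10.15 and 10.03 on YAP shRNA 1 arrays and 10.19, 10.29, 10.18 and 10.48 on control shRNA arrays. BCL2, the founding survival gene, gave 0.12 on its main probe set (limma adjusted p = 0.249). Its other 3 probe sets lay below 0, and 203685_at differed from the main one by 0.57 (limma adjusted p = 0.0129). The dimmest BCL2 probe set, 203685_at, fell by 0.45 (limma adjusted p = 0.0206 over all probe sets), at 2.89 to 3.05 on YAP shRNA 1 arrays and 3.15 to 3.60 on control shRNA arrays. The survival genes BCL2L2 and BCL2L10 stood at 0.05 and -0.20, the BH3-only genes BAD and HRK at -0.10 and -0.07, and the effector relative BOK at -0.06. BCL2L12 and BCL2L13 stood at 0.11 and -0.10, and the mitophagy receptor genes BNIP3 and BNIP3L at 0.08 and 0.11. Without control shRNA replicate 4, BNIP3L stood at 0.14 and rose (limma adjusted p = 0.0287). Without genes below the median level, BNIP3L and BCL2L12 rose and BCL2A1 fell (limma adjusted p = 0.0345, 0.0393 and 0.0282). As a mean over its probe sets, HRK stood at 0.01, BCL2L13 at 0.02 and BCL2 at -0.15, each with the opposite sign.

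Of 13 measured genes of the mitochondrial death pathway, VDAC2 among them, 2 rose and 0 fell, with a median of -0.01. Among all genes 9.49% rose and 7.17% fell. An unadjusted p under 0.05 in limma was reached by 5 of the 13, against 29.3% of all genes. CASP9, the initiator caspase of the apoptosome, rose by 0.42 (limma adjusted p = 0.00183), but stood at 0.05 without probe sets ending in _x_at or _s_at (limma adjusted p = 0.603). DFFB, the nuclease that cuts DNA in dying cells, rose by 0.28 (limma adjusted p = 0.00783). Of 11 regulators that act on BCL2 family proteins after translation, 0 rose and 1 fell, with a median of -0.05, and 2 had an unadjusted p under 0.05. The one that fell was MAPK3, which encodes the kinase ERK1, at -0.23 (limma adjusted p = 0.0206). Its call was lost without YAP shRNA 1 replicate 2, 3 or 4 or control shRNA replicate 2.

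Of 14 measured transcription factors that are tied to BCL2 family genes, 2 rose and 3 fell, with a median of -0.06, against 9.49% risen and 7.17% fallen among all genes. SNAI2, which encodes a repressor of BBC3 in blood cells, fell by 0.65 (limma adjusted p = 0.000109), and JUN, which contributes to BCL2L11 induction in neurons, fell by 0.31 (limma adjusted p = 0.000936). FOXO4 rose by 0.33 (limma adjusted p = 0.0174), a call lost without YAP shRNA 1 replicate 3 or control shRNA replicate 2. FOXO3, a known activator of BCL2L11, was bright, with 12.12, 12.07, 12.06 and 12.04 on YAP shRNA 1 arrays and 11.92, 11.94, 11.88 and 11.99 on control shRNA arrays. It rose by 0.14 (limma adjusted p = 0.0424), a call lost when any array other than control shRNA replicate 4 was left out and with median centring (limma adjusted p = 0.0621). As the mean over its probe sets FOXO3 rose by 0.26 (limma adjusted p = 0.00245).

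Promoter sequences were set beside these values for the risen members BCL2L11 and BMF, since both held a motif of a factor whose gene changed. Not every changed factor was covered, and no motif of JUN, which fell, was searched. Promoters of 8 of the 10 members were found in RefSeq sequences of GRCh38.p14, as 14 windows of 300 bases, 250 before and 50 after a gene start. BIK and MCL1 had no window, so neither was searched. The motifs were searched on both strands: GGAATG for TEAD, the partner of YAP, GTAAACA for FOXO, and CAGGTG for SNAI2. They do not overlap in the printed stretches. Below are the 250 bases before the start of BCL2L11 (chr2:111120664-111120913, plus strand) and before the downstream one of the BMF starts (chr15:40106967-40107216, minus strand), with FOXO and SNAI2 matches in capitals.
BCL2L11: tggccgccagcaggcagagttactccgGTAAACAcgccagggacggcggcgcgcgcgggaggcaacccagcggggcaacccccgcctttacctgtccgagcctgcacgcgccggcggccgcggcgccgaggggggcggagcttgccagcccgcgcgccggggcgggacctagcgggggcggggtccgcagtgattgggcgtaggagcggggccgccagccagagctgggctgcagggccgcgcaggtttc
BMF: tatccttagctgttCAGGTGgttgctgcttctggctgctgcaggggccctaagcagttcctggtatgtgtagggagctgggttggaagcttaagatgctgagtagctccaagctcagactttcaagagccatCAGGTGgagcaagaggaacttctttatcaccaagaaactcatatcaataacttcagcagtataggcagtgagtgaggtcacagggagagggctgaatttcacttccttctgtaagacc

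The FOXO motif was found in the BCL2L11 window alone among the 14 windows, beginning 223 bases before the start, and in 3.42% of all 35116 windows. BCL2L14 also held it, 206 bases before one of its starts. The SNAI2 motif was found in 2 of the 14, at 236 and 118 bases before the BMF start shown and 103 bases before the BAX start, and in 20.6% of all windows. The TEAD motif was found in 1 of the 14, that of BBC3, where it lies just after the start, and in 14.0% of all windows. These matches describe letters in short windows, with no measurement of binding.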

How the data were processed

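RNA of 8 HuCCT1 samples was isolated with an RNeasy kit, amplified with NuGEN reagents and labelled with biotin, per the labels' protocols. The authors deposited log2 values for every probe set on each array. That the base is 2 was judged from values between 1.72 and 14.9. Background correction, summarisation and normalization: not given in the sources used here. No further normalization was applied, the values carry no detection call, and the number of arrays limits the precision. Of 54675 probe sets, 41097 had 1 gene symbol in GEO's platform annotation, 1801 several and 11777 none. Each of 19775 genes was read on its brightest such probe set over the 8 arrays. By Entrez ID 41043 probe sets matched RefSeq genes of GRCh38.p14, with 0 symbols changed.

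Groups came from the sample titles. limma (version 3.58.1 in R 4.3.3) was fitted over all genes without a block, called below an adjusted p of 0.05, and over all probe sets and all within-gene probe set differences for the other probe sets. Members and lists were chosen with earlier results of these data known, and the motifs after the values were seen. The rule for named genes took every family gene and YAP1, up to 2 risen and 2 fallen genes of each pathway list, and genes directly tied to a member. The results of 1 pathway list are not reported here. On simulated data for the gene comparison (19775 genes), the fit recovered 12.0% of changes of 0.2 log2, 34.0% of 0.3, 70.0% of 0.5 and 98.0% of 1, with 10 false calls. For probe set differences (21322 pairs) it recovered 0% of 0.2, 18.0% of 0.3, 50.0% of 0.5 and 86.0% of 1, with 1 false call. In both, 50 changes of each size were planted, a smaller share than was called in the data. The adjustment depends on that share, so these rates need not hold for the real fits. Alternatives changed the normalization, the filter on dim genes, the choice of probe set, the spread model, array weights, the threshold and the arrays used (1 left out at a time), and added a replicate block. Figures used matplotlib 3.10.9.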

Additional observations from a re-analysis of the deposited data

Results flagged for a closer look

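The named genes and the array measures gave 80 groups of 4 values. In 7 of these a single array lay far from the rest of its group, and about 4 such groups arise by chance. None of the 7 belonged to a measured member of the BCL2 family list. YAP1 stood at 12.77 in control shRNA replicate 3, where the other control shRNA arrays lay at 12.59 to 12.61. BCL2L12 was low in control shRNA replicate 3, at 9.61 (9.72 to 9.73 in the others), and BNIP3L high in control shRNA replicate 4, at 11.71 (11.60 to 11.62). SPATA18 was high in YAP shRNA 1 replicate 2, at 5.07 (4.83 to 4.86). The mean correlation of an array with its own group across genes was lowest for control shRNA replicate 4, at 0.9967 (0.9978 to 0.9980). The difference between 3' and 5' control probe sets was low for GAPDH in control shRNA replicate 3, at 0.181 (0.201 to 0.205), and high for ACTB in YAP shRNA 1 replicate 1, at 1.16 (0.964 to 0.988).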

How the results depend on the processing

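At an adjusted p below 0.05, BIK rose and YAP1 fell under all 19 alternatives, and BMF rose and PMAIP1 fell under the 18 that gave a value. BMF has none without genes below the median level, and BAX and PMAIP1 have none without _x_at and _s_at probe sets, which leaves 0 members fallen. Below 0.01, 2 members rose, BCL2L11 and BIK, 0 fell and 1785 genes changed. With every probe set tested, 5580 probe sets changed and BCL2L1 was lost (0.23, limma adjusted p = 0.0588), as with median centring (0.23, 0.0529) and a replicate block (0.23, 0.0659). The mean of probe sets took the call from BCL2L11 (0.088) and turned MCL1 (-0.057), BCL2 (-0.15), BCL2L13 (0.016) and HRK (0.012). CASP8 turned without _x_at and _s_at probe sets (0.067) and VDAC2 with quantile normalization (0.00243). BID passed without the dimmest 25% of genes or those below the median level and with a trended spread (0.10 each), as a mean (0.18) and without _x_at and _s_at probe sets (0.27). BAX passed without genes below the median level (0.13). MCL1 passed with quantile normalization (0.17), without either set of dim genes and with a trended spread (0.16 each), and with array weights (0.18). A filter on dim genes changes both the number of tests and the fitted spread, and the cause of these moves was not tested. With 1 array left out, 3 to 5 members rose and 1 fell, and 2381 to 3881 genes changed. The log2 fold changes then ran from 0.18 to 0.28 for BCL2L1, 0.090 to 0.18 for BAK1 and 0.125 to 0.191 for MCL1. Probe set differences called then numbered 450 to 1093 in all, against 1098 with all arrays, and 1 to 5 among members.

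Same-numbered arrays of the groups share only a number (correlations of their deviations -0.206 to 0.00203; no array correlated best with its own number). With the replicate block 2106 genes, 252 probe set pairs and 1 member probe set were called, and FOXO4, FOXO3 and MAPK3 no longer passed (limma adjusted p = 0.0815, 0.143 and 0.0837). FOXO3 was also lost without _x_at and _s_at probe sets (0.0655) and with every probe set tested (0.0924). BNIP3L passed with a trended spread (0.0333) and array weights (0.0316), BCL2A1 with a trended spread (0.0276) and without the dimmest 25% of genes (0.0487), and DYNLL1 with a trended spread (0.0471).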
